A study of Mus musculus with 27 samples.

Results

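RNA-Seq of whole liver from 27 mice was examined for 39 genes that mark Kupffer cells, other macrophages and the blood leukocytes that enter the liver. The 39 genes were chosen by symbol from the 23191 gene symbols in the count table, and all 39 were present. They were sorted by what they mark: 6 genes of resident Kupffer cells, 9 of macrophages in general, 5 of recruited monocytes and monocyte-derived cells, 2 chemokines, 2 genes of lipid-associated macrophages, 2 of neutrophils, 3 shared by leukocytes, 4 of T and NK cells, 2 of B cells and 4 of MHC class II antigen presentation. All mice were males of the C57BL/6J strain, 8 weeks old at the start, and livers were taken after 4 weeks on the diet. HGFAC-KO mice carry, in all tissues, a CRISPR/Cas9 deletion near the start of *Hgfac*, the gene of a protease that the liver secretes and that activates hepatocyte growth factor. The 7 control mice on chow, 6 HGFAC-KO mice on chow, 7 control mice on HF/HS, a diet rich in fat and sucrose, and 7 HGFAC-KO mice on the same diet were each sequenced once, and the controls were littermates of the HGFAC-KO mice. The study does not give the number of founder lines, and no cells were separated before RNA was extracted. The values below are in CPM, the count of a gene relative to all reads of that mouse assigned to named genes, scaled by the trimmed mean of M values (TMM).

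Kupffer cells are the macrophages that live in the liver sinusoids. They take up particles and microbes from portal blood, arise largely before birth and maintain themselves by division, and they carry surface receptors such as CLEC4F, VSIG4 and TIM4. When they are lost, or when the liver is injured or loaded with lipid, monocytes that carry CCR2 enter from the blood and can become macrophages, some of which express *Trem2* and *Gpnmb* and are known as lipid-associated macrophages. Antigen-presenting cells load peptides on MHC class II, whose assembly needs the invariant chain, CD74.

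The promoters of 5 members are shown because *Clec4f* was the most abundant resident marker in counts, *C1qb* and *C1qc* are neighbouring genes that rose together on HF/HS in HGFAC-KO mice, and *H2-Aa* and *H2-Eb1* belong to the MHC class II group, whose 4 genes all had an unadjusted p under 0.05 between genotypes on HF/HS. Each runs from 250 bases before to 50 bases after the start that RefSeq gives the gene, 5′ to 3′ on the strand of the gene, and comes from RefSeq on GRCm38.p6, in which 30 of the 39 members were found. The other 9 were *C1qa*, *Csf1r*, *H2-Ab1*, *Ccl2*, *Cd74*, *Cd79b*, *Adgre1*, *Tyrobp* and *Cd4*. Capitals mark GGAAGT, or its reverse complement ACTTCC, in the first 3. This motif holds the GGAA core bound by ETS factors, among them PU.1 (*Spi1*), the main transcription factor of macrophages. Capitals mark CTGATTGG, the Y box of MHC class II promoters, in the last 2. The windows are chr6:83656067-83656366 (minus strand) for *Clec4f*, chr4:136886151-136886450 (minus strand) for *C1qb*, chr4:136892865-136893164 (minus strand) for *C1qc*, chr17:34287774-34288073 (minus strand) for *H2-Aa* and chr17:34305617-34305916 (plus strand) for *H2-Eb1*.
Clec4f promoter: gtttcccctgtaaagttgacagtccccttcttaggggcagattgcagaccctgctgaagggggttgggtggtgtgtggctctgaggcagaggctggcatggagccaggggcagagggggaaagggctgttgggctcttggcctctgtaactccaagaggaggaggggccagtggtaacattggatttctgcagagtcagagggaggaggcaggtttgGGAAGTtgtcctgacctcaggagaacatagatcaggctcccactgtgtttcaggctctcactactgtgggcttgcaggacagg
C1qb promoter: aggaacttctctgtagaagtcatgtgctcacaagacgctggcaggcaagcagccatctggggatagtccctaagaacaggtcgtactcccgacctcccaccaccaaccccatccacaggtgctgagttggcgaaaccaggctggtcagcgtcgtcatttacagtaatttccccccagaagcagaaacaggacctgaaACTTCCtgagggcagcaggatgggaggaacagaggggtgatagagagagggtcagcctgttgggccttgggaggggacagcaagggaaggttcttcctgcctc
C1qc promoter: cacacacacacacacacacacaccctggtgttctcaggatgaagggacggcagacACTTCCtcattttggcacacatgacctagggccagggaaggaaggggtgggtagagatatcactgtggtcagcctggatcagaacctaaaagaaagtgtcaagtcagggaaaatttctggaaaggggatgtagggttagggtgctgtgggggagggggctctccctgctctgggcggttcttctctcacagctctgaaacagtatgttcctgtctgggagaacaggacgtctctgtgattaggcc
H2-Aa promoter: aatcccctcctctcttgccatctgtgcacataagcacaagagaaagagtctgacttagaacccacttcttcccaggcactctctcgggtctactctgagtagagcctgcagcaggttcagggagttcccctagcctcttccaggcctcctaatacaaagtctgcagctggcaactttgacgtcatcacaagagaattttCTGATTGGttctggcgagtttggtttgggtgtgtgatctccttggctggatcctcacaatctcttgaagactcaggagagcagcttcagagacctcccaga
H2-Eb1 promoter: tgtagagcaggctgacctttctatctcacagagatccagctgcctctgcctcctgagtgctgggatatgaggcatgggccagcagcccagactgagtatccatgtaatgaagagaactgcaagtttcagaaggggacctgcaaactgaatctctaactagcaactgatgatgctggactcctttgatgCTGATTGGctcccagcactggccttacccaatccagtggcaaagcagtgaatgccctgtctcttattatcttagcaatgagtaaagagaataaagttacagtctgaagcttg

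On both strands, GGAAGT was found in the promoters of 17 of the 30 members, and in 23.8% of all 32851 promoters of the table. CTGATTGG was found in 2 of the 30, *H2-Aa* and *H2-Eb1*, and in 4.1% of all. The 2 motifs do not overlap in their letters. The first base of the motif lay 33 bases before the RefSeq start in *Clec4f*, 53 in *C1qb*, 195 in *C1qc*, 51 in *H2-Aa* and 62 in *H2-Eb1*. The GENCODE coordinates given below put the starts of *Clec4f*, *C1qb* and *C1qc* elsewhere, so distances from those starts differ. These are matches of letters, and binding was not measured.

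Levels of different genes were compared per kilobase of exon, from the exons that the GENCODE annotation of GRCm38 gives each gene. *C1qa*, a chain of complement C1q, was highest, with a mean over the 27 mice of 32.0 CPM per kb. It was followed by *Cd5l*, a secreted scavenger protein of macrophages (27.4), *Lyz2*, lysozyme (27.05), *Clec4f*, a C-type lectin of Kupffer cells (26.7), and *Cd74* (26.0). Of these 5, 4 are resident or general macrophage genes. *Marco*, *Cd163* and *Timd4* were the lowest of the resident ones, at 4.08, 2.18 and 1.94 CPM per kb. The genes of recruited monocytes lay between 0.103 for *Ly6c2* and 0.247 for *Itgam*, and *Gpnmb* was the lowest of all 39, at 0.0522. The depth behind them differed accordingly. *Clec4f* rested on 1678 to 4787 counts a mouse and *C1qa* on 941 to 2307, whereas *Ccr2* rested on 17 to 151, *S100a8* on 7 to 83, *Gpnmb* on 5 to 36 and *Cd8a* on 1 to 17. *Clec4f* lies on chromosome 6 (83644542 to 83656187), *Cd4* also on chromosome 6 (124864692 to 124888221) and *S100a8* on chromosome 3 (90668978 to 90670035). *C1qb* (136880129 to 136886187), *C1qc* (136889804 to 136893065) and *C1qa* (136895917 to 136898803) lie next to each other on chromosome 4. Exons of *Csf1r*, *Cx3cr1* and *Cd3e* overlap exons of a gene on the other strand, and those of *Itgam* and *Cd74* overlap a gene on the same strand. Whether the counting used strand is not given in the sources used here, so reads in these overlaps are uncertain, as are reads that *Ly6c2* and *Lyz2* share with their near-identical neighbours *Ly6c1* and *Lyz1*.

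Total counts ran from 36056177 to 57298657 a mouse, and the 39 members held between 0.0309% and 0.0811% of the counts of named genes. On either diet, every HGFAC-KO mouse had less *Hgfac* than every control, and hepatocyte genes, at a mean summed level from 85937 CPM in controls on chow to 105390 CPM in HGFAC-KO mice on HF/HS, dominated every liver. Control HF/HS replicate 7 was the highest of its group for 26 of the 39 members and the highest of all 27 mice for 18. Control chow replicate 6 had 40.9 CPM of *Marco*, where the other 6 mice of its group had 5.67 to 10.3. These 2 mice are called those that stood apart, and values without them are given beside a number of results, a choice made after the data were seen. In HGFAC-KO mice, KO chow replicate 2 was the lowest of its group for 25 of the 39 members and KO HF/HS replicate 2 the highest of its group for 21. The median fold changes of diet given below for HGFAC-KO mice include both of these mice. Some of those for controls are also given without mice that stood apart, so the genotypes were not trimmed alike.

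**Figure D1:**
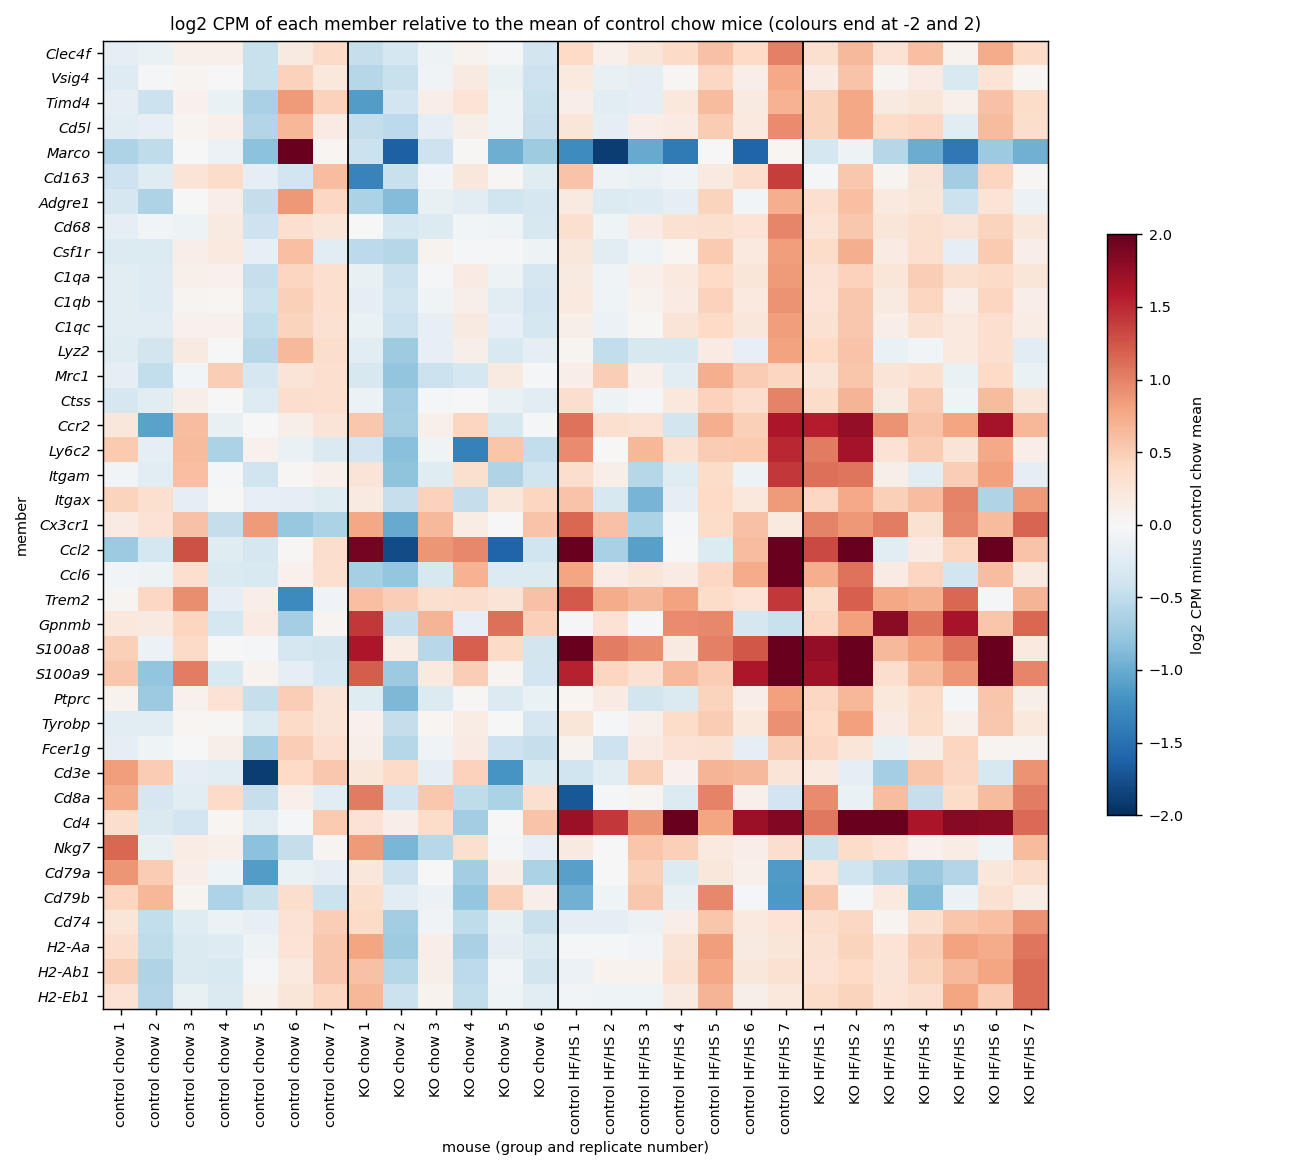
Log2 CPM of each of the 39 members (rows, by what they mark) in each of the 27 mice (columns, by group and replicate number), relative to the mean of the 7 control mice on chow; red is higher, blue is lower, and the colours end at -2 and 2. The column of control HF/HS replicate 7 is red for most members, *Marco* is darkest in control chow replicate 6, and *Cd4* is red in all 14 mice on HF/HS.

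To ask which of these cell markers the diet changed, mice on HF/HS were set against mice on chow of the same genotype. In controls, 2 of the 38 members tested rose, *Cd4* and *S100a8*, and none fell. Across all 13525 genes tested in controls, 4.93% rose and 5.6% fell (edgeR's quasi-likelihood test, Benjamini-Hochberg adjusted p under 0.05). In HGFAC-KO mice, 13 of the 39 members tested rose and none fell, where 3.17% of all 13613 genes tested rose and 2.73% fell. The 13 were *Clec4f*, *Cd5l*, *Adgre1*, *Cd68*, *C1qa*, *C1qb*, *C1qc*, *Ctss*, *Ccr2*, *Ptprc*, *Tyrobp*, *Cd4* and *Cd74*. Without KO chow replicate 2 there were 10, all but *Adgre1*, *Tyrobp* and *Cd74*, and without KO HF/HS replicate 2 there were 11, all but *Adgre1* and *Tyrobp*. The median log2 fold change of the members was 0.27 in controls, with 34 of 38 above 0, and 0.55 in HGFAC-KO mice, with 38 of 39 above 0. DESeq2 called 5 and 22 members higher in the 2 genotypes, where it called 7.11% and 5.33% of all genes higher. Over all genes tested the median fold changes were 0.0036 and 0.0037, and 51.1% and 50.8% were above 0. Without control HF/HS replicate 7 the median in controls was 0.15, with 33 of 38 above 0 and the same 2 members called. It was 0.33 without control chow replicate 6 and 0.23 without both mice that stood apart. In whole liver, more cells of a type and more RNA per cell cannot be told apart. The difference between the genotypes in the effect of diet is given below, and no member passed that test.

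**Figure D2:**
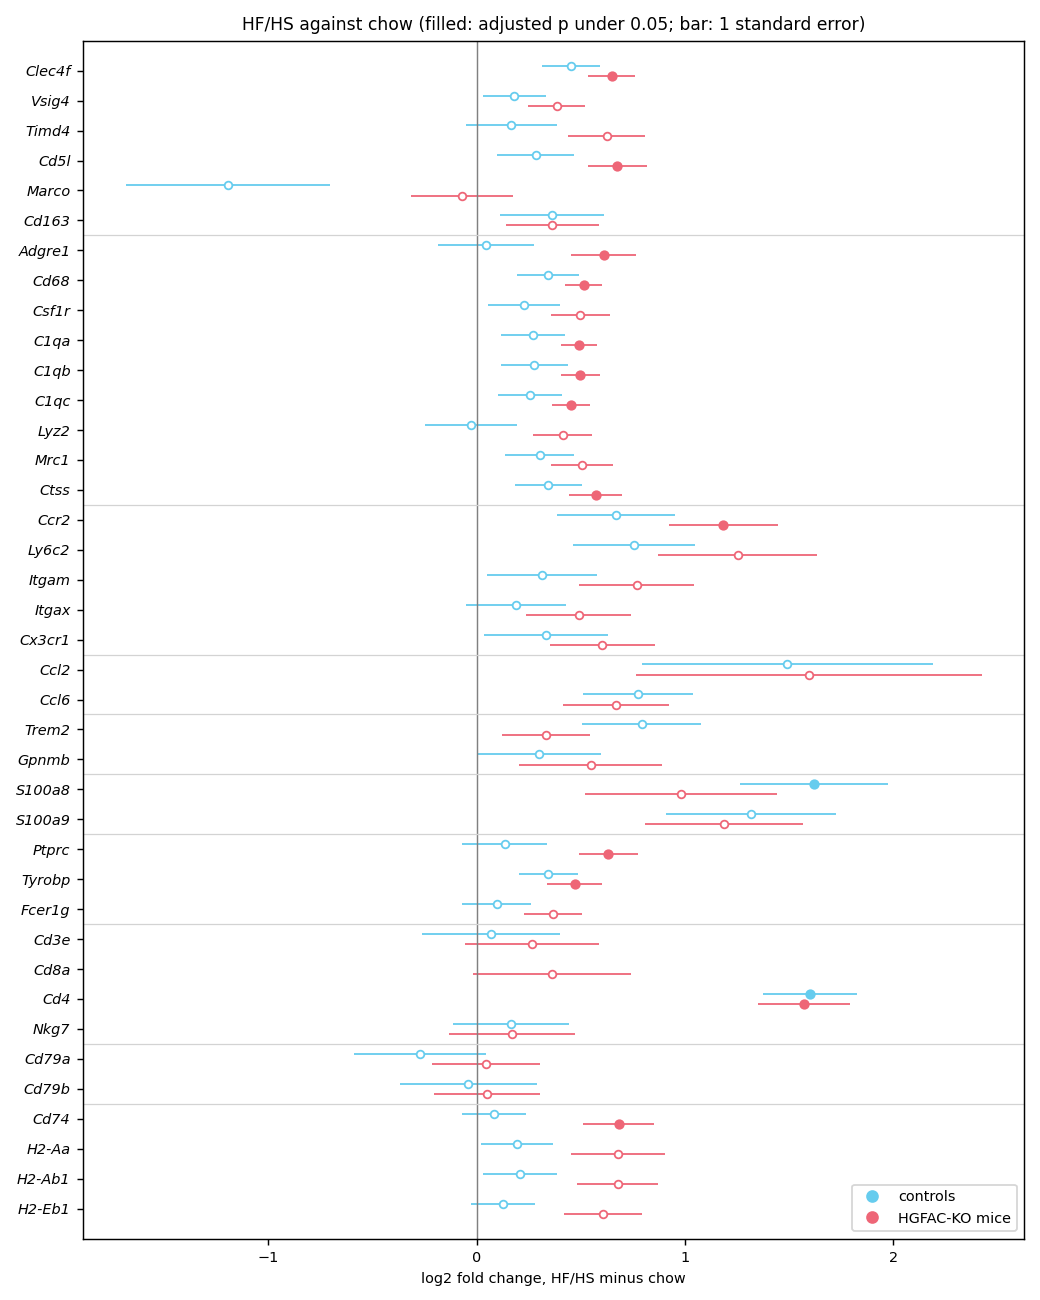
Log2 fold change of each member between HF/HS and chow (HF/HS minus chow) in controls (light blue) and in HGFAC-KO mice (red), with bars of 1 standard error and filled points where the adjusted p was under 0.05; *Cd8a* was too low to be tested in controls. The 2 filled points of controls are *S100a8* and *Cd4*, and 38 of the 39 points of HGFAC-KO mice lie above 0.

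Of the 6 resident Kupffer cell genes, none passed the test in controls, and 2 rose in HGFAC-KO mice, with medians of 0.23 and 0.50. The median in controls was 0.09 without control HF/HS replicate 7, with 5 of 6 above 0. It was 0.33 without control chow replicate 6 and 0.20 without both mice that stood apart. *Clec4f* ranged from 41.3 to 73.5 CPM (median 60.3) in controls on chow and from 60.2 to 113.5 (median 73.7) in controls on HF/HS. In HGFAC-KO mice it ranged from 40.9 to 59.3 (median 48.4) on chow and from 59.0 to 93.7 (median 73.4) on HF/HS. The groups overlapped in controls, and in HGFAC-KO mice 6 of the 7 mice on HF/HS were above all mice on chow. Its log2 fold change was 0.45 ± 0.14 (SE) in controls, with an adjusted p of 0.0519, and 0.65 ± 0.11 in HGFAC-KO mice, with an adjusted p of 0.00372 by edgeR. *Cd5l* rose in HGFAC-KO mice by 0.68 ± 0.14 on the log2 scale (adjusted p = 0.012), from a median of 39.8 to 65.7 CPM. *Timd4*, the phosphatidylserine receptor TIM4, missed the threshold in HGFAC-KO mice (0.62 ± 0.19, adjusted p = 0.0598), as did *Vsig4*, a complement receptor (0.38 ± 0.14, adjusted p = 0.111), and *Cd163*, the haemoglobin scavenger receptor (0.36 ± 0.22, adjusted p = 0.366).

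*Marco*, a scavenger receptor that binds bacteria, was the resident gene with a fold change below 0 in both genotypes, and it passed the test in neither. In controls it ranged from 5.67 to 40.9 CPM (median 9.26) on chow and from 2.65 to 10.3 (median 4.17) on HF/HS, a log2 fold change of -1.19 ± 0.49 (edgeR adjusted p = 0.144). Without control chow replicate 6 that value was -0.54 (adjusted p = 0.342). In HGFAC-KO mice it ranged from 3.20 to 10.2 CPM (median 6.80) on chow and from 3.70 to 9.33 (median 6.06) on HF/HS, and the log2 fold change was -0.07 ± 0.25 (adjusted p = 0.9).

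Among the 9 genes of macrophages in general, 6 rose in HGFAC-KO mice and none passed in controls. All 9 fold changes were between 0.41 and 0.61 on the log2 scale in HGFAC-KO mice (median 0.50) and between -0.03 and 0.35 in controls (median 0.27). The median for controls was 0.15 without control HF/HS replicate 7, with 7 of 9 above 0. It was 0.35 without control chow replicate 6 and 0.23 without both mice that stood apart. *Cd68*, a lysosomal membrane protein of phagocytes, ranged from 4.40 to 5.61 CPM (median 4.98) in HGFAC-KO mice on chow and from 6.56 to 8.22 (median 6.79) on HF/HS. These groups did not overlap, and the log2 fold change was 0.51 ± 0.09 (edgeR adjusted p = 0.0029). In controls *Cd68* ranged from 4.22 to 7.11 CPM (median 5.38) on chow and from 5.27 to 11.1 (median 6.95) on HF/HS. These groups overlapped (0.34 ± 0.15, edgeR adjusted p = 0.16). The log2 fold change there was 0.20 without control HF/HS replicate 7 and 0.41 without control chow replicate 6.

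*C1qa*, *C1qb* and *C1qc* encode the chains of C1q, which starts the classical complement pathway and is made in liver mainly by macrophages. *C1qa* ranged in HGFAC-KO mice from 22.1 to 33.4 CPM (median 27.3) on chow and from 35.2 to 41.9 (median 37.2) on HF/HS. *C1qb* ranged from 19.1 to 27.4 (median 22.1) on chow and from 27.6 to 36.8 (median 30.7) on HF/HS. Neither gene overlapped between the diets in HGFAC-KO mice, and both did in controls. Their log2 fold changes were 0.49 ± 0.09 and 0.50 ± 0.09 in HGFAC-KO mice (edgeR adjusted p = 0.00335 and 0.00544), and that of *C1qc* was 0.45 ± 0.09 (adjusted p = 0.00908). In controls the 3 genes had values of 0.27, 0.28 and 0.26 and adjusted p from 0.284 to 0.328. They were at 0.15, 0.15 and 0.14 there without control HF/HS replicate 7, and at 0.35, 0.37 and 0.34 without control chow replicate 6. *Ctss*, the cathepsin that trims the invariant chain, rose in HGFAC-KO mice by 0.57 ± 0.13 on the log2 scale (adjusted p = 0.017), and *Adgre1*, which encodes F4/80, by 0.61 ± 0.15 (adjusted p = 0.031). The call of *Adgre1* was lost without any 1 of 8 of the 13 mice. *Csf1r*, the receptor for the growth factor CSF1, was at 0.50 ± 0.14 and an adjusted p of 0.054. The other general genes, the mannose receptor *Mrc1* (0.51) and *Lyz2* (0.41), had adjusted p of 0.0598 and 0.0973 in HGFAC-KO mice.

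**Figure D3:**
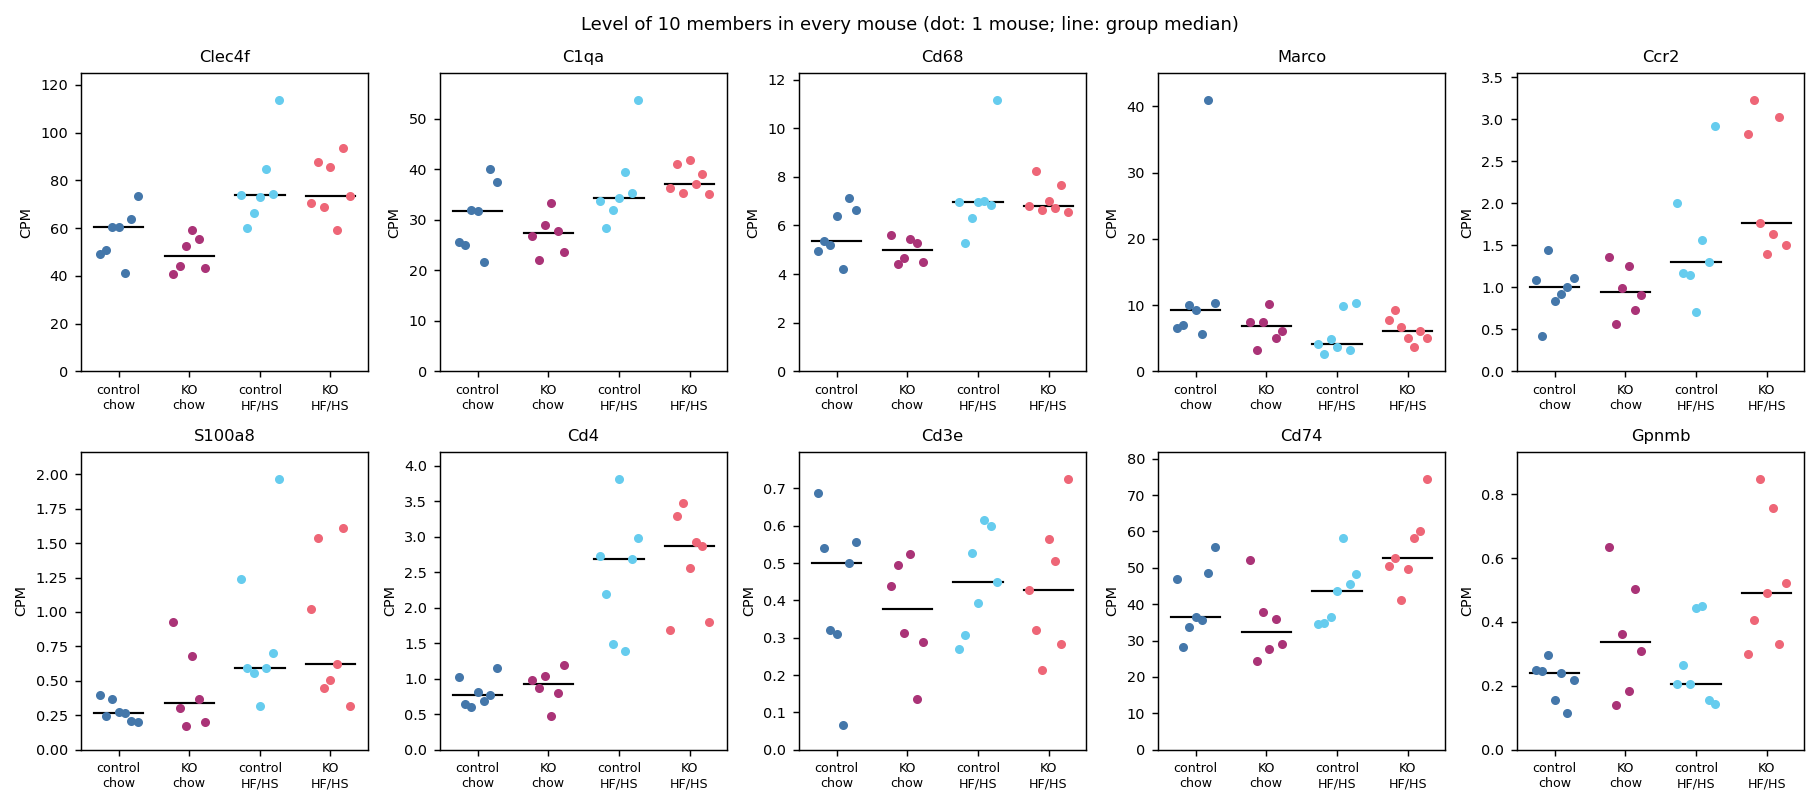
CPM of 10 members in every mouse of the 4 groups, 1 dot a mouse, with a line at the group median; each panel has its own axis from 0. *Cd4* is higher in all mice on HF/HS than in all mice on chow of the same genotype, *C1qa*, *Cd68* and *Ccr2* separate the diets in HGFAC-KO mice, and *Cd3e* overlaps between all groups.

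The 5 genes of recruited monocytes had fold changes above 0 on HF/HS in both genotypes, with medians of 0.33 in controls and 0.77 in HGFAC-KO mice, and 1 of them rose. *Ccr2*, the receptor by which monocytes follow CCL2, ranged from 0.565 to 1.37 CPM (median 0.948) in HGFAC-KO mice on chow and from 1.40 to 3.22 (median 1.77) on HF/HS. These groups did not overlap, and the log2 fold change was 1.18 ± 0.26 (edgeR adjusted p = 0.0144). In controls it ranged from 0.418 to 1.44 CPM (median 1.00) on chow and from 0.706 to 2.92 (median 1.30) on HF/HS, with overlap (0.67 ± 0.28, adjusted p = 0.146), and it was at 0.44 without control HF/HS replicate 7. *Ly6c2*, the surface protein of inflammatory monocytes, was at 0.76 ± 0.29 in controls (adjusted p = 0.112) and 1.25 ± 0.38 in HGFAC-KO mice (adjusted p = 0.0663), from 2 to 35 counts a mouse. *Itgam* (CD11b), *Itgax* (CD11c) and the fractalkine receptor *Cx3cr1* had adjusted p between 0.111 and 0.269 in HGFAC-KO mice and between 0.5 and 0.678 in controls.

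Of the chemokines, neither passed. *Ccl2*, the ligand of CCR2, had a wide spread, from 0.410 to 8.13 CPM (median 0.915) on HF/HS in controls, and 0.778 to 13.2 (median 1.38) on HF/HS in HGFAC-KO mice. On chow its medians were 0.773 and 1.21 CPM, and the second-highest mice on HF/HS had 7.69 and 9.33 CPM. Its log2 fold changes of 1.49 ± 0.70 and 1.59 ± 0.83 had adjusted p of 0.2 and 0.282, the value in controls was 0.97 without control HF/HS replicate 7, and that in HGFAC-KO mice was as low as 0.94 when single mice were left out. *Ccl6*, a chemokine made by macrophages and other myeloid cells, was at 0.77 ± 0.27 (adjusted p = 0.0777) in controls and 0.67 ± 0.25 (adjusted p = 0.137) in HGFAC-KO mice by edgeR, and the value in controls was 0.43 without control HF/HS replicate 7. The lipid-associated macrophage genes did not pass either. *Trem2*, a lipid-sensing receptor, was at 0.79 ± 0.29 (adjusted p = 0.0901) in controls and 0.33 ± 0.21 (adjusted p = 0.383) in HGFAC-KO mice. *Gpnmb*, a glycoprotein of lipid-laden macrophages, was at 0.30 ± 0.30 and 0.55 ± 0.34 (adjusted p = 0.576 and 0.376).

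*S100a8* and *S100a9* encode the subunits of calprotectin, the main cytosolic protein of neutrophils, which monocytes also make. *S100a8* ranged from 0.199 to 0.396 CPM (median 0.264) in controls on chow and from 0.314 to 1.97 (median 0.595) in controls on HF/HS. Of the 7 mice on HF/HS, 6 were above all mice on chow, and the log2 fold change was 1.62 ± 0.36 (edgeR adjusted p = 0.0082). Without control HF/HS replicate 7 it was 1.27, and the call was kept (adjusted p = 0.00802). In HGFAC-KO mice *S100a8* ranged from 0.169 to 0.927 CPM (median 0.336) on chow and from 0.318 to 1.61 (median 0.620) on HF/HS, and it missed the threshold (0.98 ± 0.46, adjusted p = 0.223). *S100a9* missed it in both genotypes, at 1.32 ± 0.41 in controls (adjusted p = 0.0505) and 1.19 ± 0.38 in HGFAC-KO mice (adjusted p = 0.0775). A list of 12 other neutrophil genes had only 3 that were high enough to be tested, and none of them passed on either genotype.

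Of the genes shared by leukocytes, *Ptprc*, which encodes CD45, and *Tyrobp*, the signalling adaptor DAP12, rose in HGFAC-KO mice. *Ptprc* ranged from 3.95 to 7.50 CPM (median 6.19) on chow and from 7.21 to 11.8 (median 9.70) on HF/HS, a log2 fold change of 0.63 ± 0.14 (edgeR adjusted p = 0.0163). Of the 7 mice on HF/HS, 6 were above all on chow. *Tyrobp* was at the threshold (0.47 ± 0.13, adjusted p = 0.0498), and its call was lost without any 1 of 11 of the 13 mice. *Fcer1g*, the common chain of Fc receptors, was at 0.37 ± 0.14 (adjusted p = 0.136). In controls the 3 genes were between 0.10 and 0.34, and their adjusted p ran from 0.134 to 0.773. There, *Ptprc* was at -0.01, *Fcer1g* at 0.02 and *Tyrobp* at 0.23 without control HF/HS replicate 7. Without control chow replicate 6 they were at 0.22, 0.19 and 0.42, in the same order.

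*Cd4*, the co-receptor of helper T cells, which some mouse macrophages and dendritic cells also carry, had the smallest p of all members in both genotypes. It ranged from 0.594 to 1.15 CPM (median 0.775) in controls on chow and from 1.40 to 3.82 (median 2.68) on HF/HS. In HGFAC-KO mice it ranged from 0.472 to 1.19 CPM (median 0.923) on chow and from 1.69 to 3.47 (median 2.86) on HF/HS. The diets did not overlap in either genotype. The log2 fold changes were 1.60 ± 0.22 in controls and 1.57 ± 0.22 in HGFAC-KO mice (edgeR adjusted p = 0.000273 and 0.000724), and the exact permutation test gave p = 0.000583 in both (two-sided; the smallest it can give with 7 against 7 or 6 against 7 mice). *Cd4* was the 1 member of 38 whose groups did not overlap in controls, where 1.52% of all genes tested were higher in every mouse on HF/HS. In HGFAC-KO mice there were 5 of 39, *Cd4*, *Cd68*, *C1qa*, *C1qb* and *Ccr2*, and 1.59% of all genes.

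The other T and NK cell members did not pass. *Cd3e*, a chain of the T cell receptor complex, had medians of 0.501, 0.376, 0.451 and 0.427 CPM in controls on chow, HGFAC-KO mice on chow, controls on HF/HS and HGFAC-KO mice on HF/HS. All 4 groups overlapped, and its log2 fold change was 0.07 ± 0.33 in controls and 0.26 ± 0.32 in HGFAC-KO mice (edgeR adjusted p = 0.923 and 0.669). *Nkg7*, a granule protein of cytotoxic cells, was at 0.16 ± 0.28 and 0.17 ± 0.30. *Cd8a*, the co-receptor of cytotoxic T cells, was too low to be tested in controls and at 0.36 ± 0.38 in HGFAC-KO mice (adjusted p = 0.615). The B cell receptor chains *Cd79a* and *Cd79b* were at -0.27 ± 0.32 and -0.04 ± 0.33 in controls, and both at 0.05 in HGFAC-KO mice, with adjusted p from 0.641 to 0.959.

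The 4 MHC class II genes had fold changes between 0.61 and 0.68 on the log2 scale in HGFAC-KO mice and between 0.08 and 0.21 in controls. *Cd74*, the invariant chain, ranged from 24.5 to 52.1 CPM (median 32.5) in HGFAC-KO mice on chow and from 41.2 to 74.5 (median 52.7) on HF/HS, and it rose (0.68 ± 0.17, edgeR adjusted p = 0.0299). The call was lost without any 1 of 6 of the 13 mice. In controls it ranged from 28.2 to 55.7 CPM (median 36.5) on chow and from 34.6 to 58.3 (median 43.5) on HF/HS, with overlap (0.08 ± 0.15, adjusted p = 0.789). *H2-Aa*, *H2-Ab1* and *H2-Eb1*, the chains that hold the peptide, had adjusted p of 0.0956, 0.0564 and 0.0726 in HGFAC-KO mice.

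**Figure D4:**
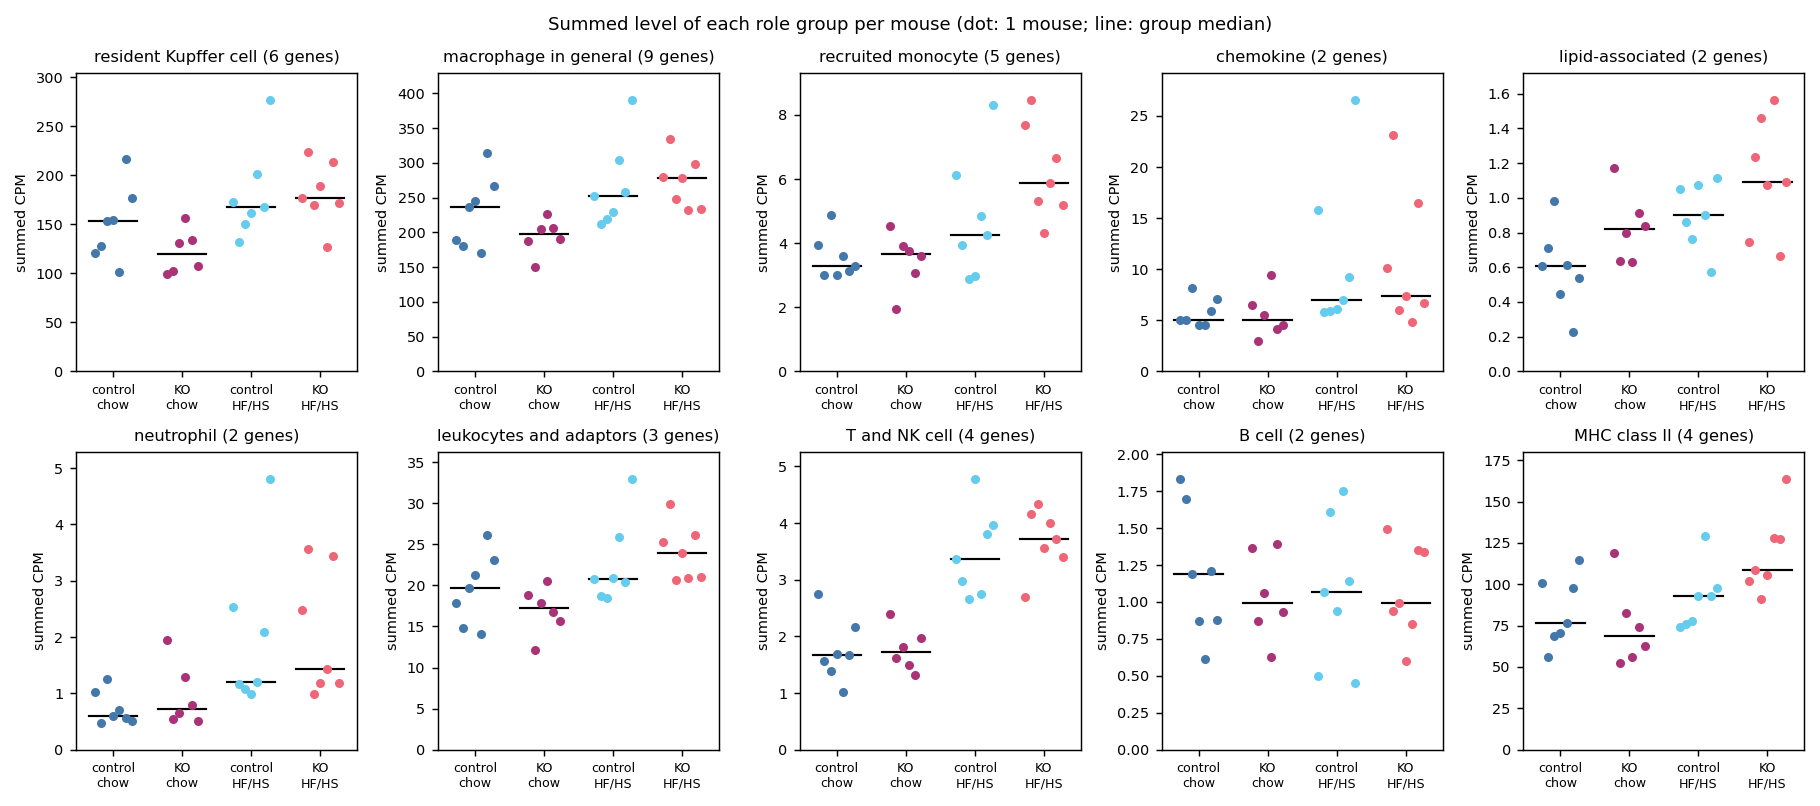
Summed CPM of the genes of each of the 10 groups of members in every mouse, 1 dot a mouse, with a line at the median of the 4 genotype and diet groups; each panel has its own axis from 0. The sums of general macrophage genes, of genes shared by leukocytes and of T and NK cell genes separate the diets in HGFAC-KO mice and overlap in controls, and those of B cell genes overlap in all groups.

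As sums, the 6 resident genes had a mean of 150.1 ± 38.5 CPM (SD, n = 7) in controls on chow, 121.9 ± 22.3 (n = 6) in HGFAC-KO mice on chow, 180.3 ± 47.3 (n = 7) in controls on HF/HS and 181.6 ± 31.8 (n = 7) in HGFAC-KO mice on HF/HS. The 5 genes of recruited monocytes had means of 3.55 ± 0.68, 3.47 ± 0.88, 4.76 ± 1.92 and 6.22 ± 1.46 CPM in the same order. The groups overlapped in both sums. Of the sum of T and NK cell genes, which went from 1.75 ± 0.56 to 3.47 ± 0.76 CPM in controls (SD, n = 7 each), *Cd4* alone had means of 0.811 and 2.47 CPM.

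HGFAC-KO mice were compared with controls on each diet to ask whether the loss of HGFAC changed these markers. No member passed on chow. Of 37 tested, 8 were above 0, as were 51.2% of all genes, the median log2 fold change was -0.20 (0.0031 over all genes), and at an unadjusted p under 0.05 there was 1 higher and 1 lower. Over all 13571 genes, 0.00737% passed the adjusted threshold, 3.39% were higher and 2.59% lower at the unadjusted one, and DESeq2 and limma voom also called no member. All 6 resident and all 9 general macrophage genes were below 0 on chow, with medians of -0.29 and -0.21. Without control chow replicate 6 they were still below 0, with medians of -0.17 and -0.13. Of markers of other liver cells, 1 of 8 sinusoidal endothelial genes was above 0 (median -0.21). So were 3 of 8 stellate cell genes (median -0.06) and 5 of 5 tested cholangiocyte genes (median 0.17). Their part in the members' values on chow was not tested. The 3 members with the smallest p were *Adgre1* (-0.50 ± 0.22), *Gpnmb* (0.71 ± 0.33) and *Marco* (-0.96 ± 0.48), each with an adjusted p of 0.801 by edgeR. Without control chow replicate 6 *Marco* was at -0.31 and *Adgre1* at -0.32. *Adgre1* ranged from 6.83 to 19.3 CPM (median 10.6) in controls, against 5.74 to 9.51 (median 8.15) in HGFAC-KO mice, with overlap.

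On HF/HS no member passed either. Of 38 tested, 27 were above 0, as were 49.5% of all genes, the median was 0.05 (-0.0015 over all genes), and 5 were higher and none lower at an unadjusted p under 0.05, where 4.94% of all 13544 genes were higher and 4.7% lower. At the adjusted threshold 0.0148% of all genes passed, and DESeq2 and limma voom called no member. Without control HF/HS replicate 7 the median was 0.19, with 32 of 38 above 0. The 5 were *Gpnmb* and all 4 MHC class II genes. *Gpnmb* ranged from 0.142 to 0.450 CPM (median 0.207) in controls, against 0.299 to 0.849 (median 0.491) in HGFAC-KO mice, from 6 to 19 and from 14 to 36 counts a mouse. The log2 fold change was 0.95 ± 0.31 (edgeR adjusted p = 0.418), and 4 of 7 HGFAC-KO mice were above all controls. A two-sided exact permutation test of *Gpnmb* alone gave p = 0.0128, not adjusted for the number of genes. *H2-Eb1* was at 0.41 ± 0.14, *Cd74* at 0.35 ± 0.13, *H2-Aa* at 0.38 ± 0.15 and *H2-Ab1* at 0.33 ± 0.15, with adjusted p from 0.444 to 0.495 by edgeR. Without control HF/HS replicate 7 the median of these 4 was 0.39. *H2-Eb1* ranged from 10.7 to 18.4 CPM (median 12.4) in controls, against 13.9 to 24.8 (median 15.6) in HGFAC-KO mice, and the groups overlapped. The resident and general macrophage genes had medians of 0.03 and 0.01, and without control HF/HS replicate 7 of 0.16 and 0.16.

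**Figure D5:**
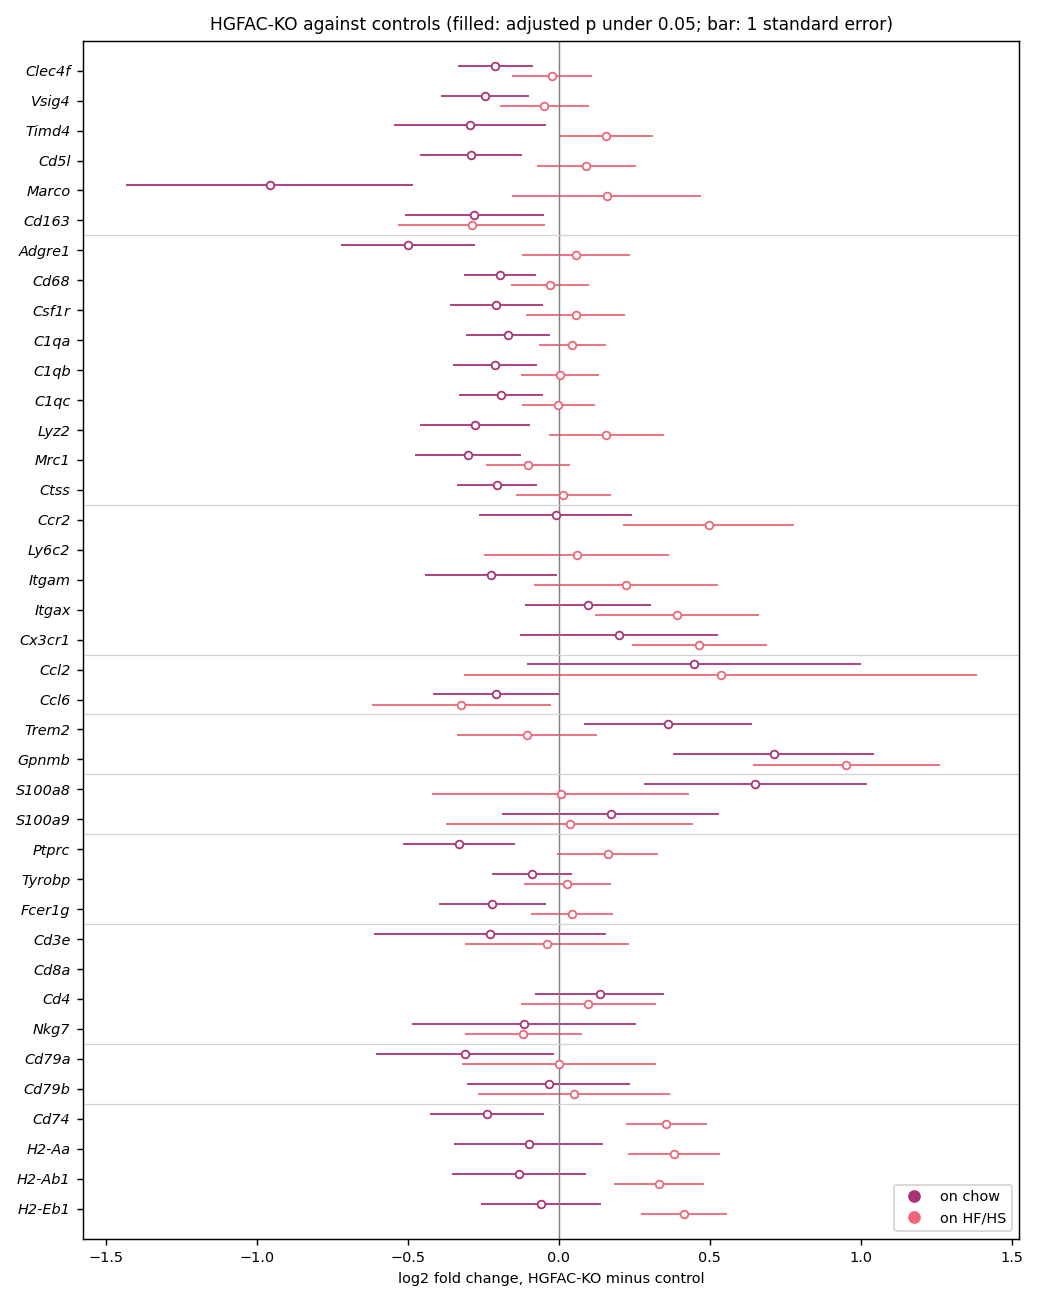
Log2 fold change of each member between HGFAC-KO mice and controls (HGFAC-KO minus control) on chow (purple) and on HF/HS (red), with bars of 1 standard error; a filled point would mark an adjusted p under 0.05, and there is none. On chow 29 of 37 points lie below 0, and on HF/HS *Gpnmb* and the 4 MHC class II genes lie farthest to the right relative to their bars.

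Whether the genotypes differed by more on one diet than on the other was tested with an interaction term in a fit of all 27 mice. No member passed, nor did any of the 13932 genes, and DESeq2 and limma voom called no member. At an unadjusted p under 0.05 there was 1 member, *Cd74* (0.60 ± 0.24, edgeR adjusted p = 0.984), where 1.74% of all genes were higher and 1.89% lower. Of the 39 members 33 were above 0, as were 51.3% of all genes, with a median of 0.25 (0.0042 over all genes). The median was 0.16 without control chow replicate 6 and 0.34 without control HF/HS replicate 7. The values of *Marco* and *Adgre1* were 1.12 ± 0.59 and 0.56 ± 0.30, or 0.47 and 0.38 without control chow replicate 6, and that of *Clec4f* was 0.19 ± 0.19. The 13 calls in HGFAC-KO mice and the 2 in controls are therefore not shown to be a difference between the genotypes. The comparisons share mice: the HGFAC-KO mice on chow enter both the diet comparison and the genotype comparison on chow.

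The agreement of 8 pairs of members from mouse to mouse was measured over the 27 mice on log2 CPM with the group means removed, by permutation within groups (100000 permutations, two-sided, Benjamini-Hochberg adjustment over the 8). *C1qa* and *C1qb* had r = 0.976 and rho = 0.975, and *H2-Aa* and *H2-Ab1* r = 0.971 and rho = 0.972, with p = 1e-05 each, the smallest these permutations can give, and adjusted p = 2.67e-05. Among resident genes, *Clec4f* and *Vsig4* had r = 0.906 and rho = 0.928 (p = 1e-05, adjusted p = 2.67e-05 by permutation). Without the 2 mice farthest from the median of the first gene, r was 0.961, 0.967 and 0.896 for these 3 pairs. *Cd79a* and *Cd79b* had r = 0.791 and *S100a8* and *S100a9* r = 0.802, and r was 0.813 and 0.720 without 2 mice. *Tyrobp* and *Fcer1g* had r = 0.717, and 0.736 without 2 mice. *Clec4f* varied together with *Ptprc* (r = 0.706, rho = 0.684, and 0.629 without 2 mice) and less closely with *Ccr2* (r = 0.448, rho = 0.418, permutation p = 0.0321, also after adjustment over the 8 pairs). Without control HF/HS replicate 7 and control chow replicate 7 the value for *Clec4f* and *Ccr2* was 0.297 (permutation p = 0.172), so that relation no longer passed without those 2 mice.

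Other genes of the same cells were described from lists of markers. In HGFAC-KO mice on HF/HS, 7 of 14 other macrophage genes rose, with a median of 0.45, among them *Cyth4*, a regulator of small GTPases (0.72 ± 0.13, edgeR adjusted p = 0.00401), and *Fcgr1*, the high-affinity IgG receptor (0.94 ± 0.18, adjusted p = 0.0066). Of 14 other Kupffer cell markers 4 rose, with a median of 0.35, led by the folate receptor *Folr2* (0.73 ± 0.15, adjusted p = 0.0111) and properdin, *Cfp* (0.47 ± 0.10, adjusted p = 0.0139). In controls 1 of these 14 rose (*Nr1h3*, 0.17 ± 0.05, edgeR adjusted p = 0.046). Its means there, 118.6 CPM on chow and 133.6 on HF/HS, were above those of *Clec4f* (57.1 and 78.0). Which cells its RNA came from cannot be told in whole liver. Of the 14 macrophage genes in controls, 2 rose and 1 fell, with *Mpeg1*, perforin-2 of macrophages, at 0.70 ± 0.21 (adjusted p = 0.0471) and *Lcp1*, an actin-bundling protein of leukocytes, at -0.26 ± 0.06 (adjusted p = 0.00794). Among 11 tested monocyte and dendritic cell genes, *Plac8* (0.94 ± 0.14, adjusted p = 0.00132) and *Siglech*, a marker of plasmacytoid dendritic cells (1.01 ± 0.20, adjusted p = 0.00842), rose in HGFAC-KO mice. Of 10 tested antigen presentation genes 3 rose there, with the immunoproteasome subunit *Psmb8* and the peptide transporter *Tap1* both at 0.43 ± 0.08 (adjusted p = 0.00348 and 0.0036). *Cd3d* was the 1 of 8 tested T and NK cell genes to rise there (1.22 ± 0.33, adjusted p = 0.0422), and none of 6 passed in controls. Of the lipid-associated list, *Fabp5* rose in both genotypes, by 1.83 ± 0.28 in controls (adjusted p = 0.000988) and 1.75 ± 0.24 in HGFAC-KO mice (adjusted p = 0.00106), while *Ctsd*, the lysosomal protease cathepsin D, fell in controls (-0.16 ± 0.05, adjusted p = 0.0467) and the list's medians were 0.01 and -0.01. None of the lists had a gene that passed between genotypes or in the interaction by edgeR.

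Markers of other liver cells were summed in the same mice, and few of them passed the test. The summed level of 8 sinusoidal endothelial genes in controls was 172.8 to 287.4 CPM on chow and 206.0 to 335.8 on HF/HS. In HGFAC-KO mice it was 149.5 to 241.9 and 197.4 to 291.3 CPM. Of these 8 genes 7 were above 0 in each genotype, with medians of 0.30 in controls and 0.28 in HGFAC-KO mice, *Stab2* passed in HGFAC-KO mice (0.42 ± 0.09, edgeR adjusted p = 0.0124) and none passed in controls. The sum of 8 stellate cell genes in the same order was 209.8 to 297.2, 248.0 to 314.9, 153.1 to 297.4 and 220.6 to 355.0 CPM, with 7 of 8 above 0 in each genotype and medians of 0.19 and 0.37. In controls *Colec11*, a secreted collectin, rose (0.26 ± 0.07, adjusted p = 0.0182 by edgeR) and *Lrat*, which esterifies retinol for storage, fell (-0.60 ± 0.16, adjusted p = 0.0273), and no stellate cell gene passed in HGFAC-KO mice. The sum of 5 red blood cell genes was 180.2 to 352.1, 122.2 to 247.1, 171.9 to 289.4 and 128.2 to 403.3 CPM, and 2 of the 5 fell on HF/HS in controls and none passed in HGFAC-KO mice. None of these lists had a gene at 0 in a whole group. Their part in the members' values was not tested.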

How the data were processed

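Stranded libraries of captured liver mRNA were sequenced from both ends. The authors used HISAT2 for alignment to GRCm38 (mm10) and featureCounts for counting (version 1.6.3 in the submitters' processing notes), and they deposited raw counts per gene for all mice in 1 table, without normalization. The gene annotation and strand setting of the counting are not given in the sources used here. Rows without a gene name (3886 of 27179), which held 4.13% to 12.1% of a library, stayed out of library sizes and tests, and 89 symbols on 191 rows were summed.

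Groups came from the labels. The test was edgeR 4.0.16 under R 4.3.3 (TMM, filterByExpr with a minimum count of 10 and a minimum total of 15, robust quasi-likelihood fit, Benjamini-Hochberg over all genes tested, threshold 0.05), each comparison with its own mice only and the interaction with all 27. The study's text names the BioJupies server and no model. SE is the absolute log2 fold change divided by the square root of F. Levels are CPM with TMM factors, and log2 CPM has a prior count of 2. The edgeR, limma voom and DESeq2 fits were run on simulated counts with known changes. A limit on false calls was applied there to edgeR and limma voom, and not to DESeq2. Replicates differed from each other by more than sampling noise (lowest chi-square per gene 17.7). P-values of the fits weigh a difference between groups against the spread between mice, and those of the pairs come from permutation within groups.

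The 39 members and all lists were chosen with earlier results of these data known. Named members passed a test, were the most abundant of their group or had 1 of the 3 smallest p of a comparison, and the rest are given by range or value. Of a list, up to 2 genes past the threshold are named. Besides that of *Apoa1*, a further result from the hepatocyte list is not reported here. Alternatives were DESeq2 1.42.0 with and without independent filtering, limma 3.58.1 voom, upper-quartile and DESeq2 size factors in edgeR, no filter, the replicate number as a block, all 27 mice in 1 fit, leaving out each mouse, and leaving out both mice that stood apart.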

Additional observations from a re-analysis of the deposited data

Results flagged for a closer look

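In 15 of 156 combinations of a member and a group (9.62%), 1 mouse lay beyond Dixon's 95% critical value from the others, always above them. That value flags about 1 in 20 only where values are independent and normally distributed. Untransformed CPM was used and members vary together, so the count cannot be set against that share. The share over all genes was not computed. Of these, 7 were in control HF/HS replicate 7, all genes of myeloid cells. That mouse had 28.6 CPM of *Cd163*, 11.1 of *Cd68*, 61.2 of *Lyz2*, 40.2 of *Ctss*, 2.89 of *Itgam*, 18.4 of *Ccl6* and 2.85 of *S100a9*, against highest values among its 6 group mates of 16.3, 7.00, 39.1, 27.9, 1.37, 8.12 and 1.38 CPM. Control HF/HS replicate 5 stood apart for 3 MHC class II genes, with 26.0 CPM of *H2-Aa*, 26.6 of *H2-Ab1* and 18.4 of *H2-Eb1*, against at most 17.5, 19.3 and 13.2 in the others. Control chow replicate 6 had 40.9 CPM of *Marco*, against at most 10.3. Control chow replicate 3 had 1.62 CPM of *Itgam* and 2.29 of *Ccl2*, KO chow replicate 4 had 7.58 of *Ccl6*, and control chow replicate 1 had 0.730 of *Nkg7*, against at most 1.13, 1.19, 3.84 and 0.343 CPM in the other mice of their groups. The causes were not tested.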

How the results depend on the processing

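In controls, the 2 members called on HF/HS became 5 with DESeq2, with and without independent filtering (*Clec4f*, *Ccl6*, *S100a8*, *S100a9* and *Cd4*). They became 5 in the fit of all 27 mice (*Clec4f*, *Trem2*, *S100a8*, *S100a9* and *Cd4*), where 4.84% of all genes were called higher. They numbered 2 to 4 when single mice were left out. *Cd4* and *S100a8* were called in each of the 14 runs. In HGFAC-KO mice, the 13 became 22 with DESeq2, again with and without independent filtering, and 10 to 16 when single mice were left out. Of the 13, 10 were called in each of the 13 runs. *Tyrobp* was lost except without KO chow replicate 1 or KO HF/HS replicate 5 (adjusted p up to 0.118). *Adgre1* was lost without KO chow replicates 1, 2 or 5 or KO HF/HS replicates 1, 2, 3, 4 or 6 (up to 0.0756), and *Cd74* without KO chow replicates 2, 4, 5 or 6 or KO HF/HS replicates 6 or 7 (up to 0.0663). With the replicate number as a block, 8 members were called in HGFAC-KO mice (*Clec4f*, *Cd68*, *C1qa*, *C1qb*, *C1qc*, *Ccr2*, *Ptprc* and *Cd4*) and 3 in controls. That fit called 2.31% of all genes higher in HGFAC-KO mice and 2.49% in controls. *Cd5l* and *Ctss*, called in HGFAC-KO mice in every run without 1 mouse, were not among the 8. Whether replicate numbers pair the mice is not known. Deviations of mice with the same number correlated between -0.30 and 0.46 over all comparisons, and between -0.18 and 0.33 for diet in HGFAC-KO mice. A mouse agreed best with its own number in 0 of 7 pairs for diet in controls and 3 of 6 in HGFAC-KO mice. Between genotypes this held in 1 of 6 pairs on chow and 1 of 7 on HF/HS. So few pairs cannot exclude pairing. Between genotypes and in the interaction, every alternative called 0 members. With the mean of log2 CPM in place of the log2 of the sum, the rise of the T and NK cell level was 0.46 in controls and 0.59 in HGFAC-KO mice, in place of 1.02 and 1.07. No member that was called, or that had 1 of the 3 smallest p of a comparison, changed sign there under any alternative run. Of 163 other pairs of a member and a comparison, 44 changed sign and 12 passed the threshold under at least 1. Few counts limit *Gpnmb*, *S100a8*, *Ly6c2* and *Cd8a*. The causes were not tested.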

Other observations

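Of 17 genes of leukocyte recruitment signals, 11 could be tested for diet in controls and 13 in HGFAC-KO mice. *Selp*, which encodes P-selectin, rose in controls (0.37 ± 0.08 on the log2 scale, edgeR adjusted p = 0.0105), and none passed in HGFAC-KO mice, where all 13 were above 0 with a median of 0.30. The summed level of these 17 genes ran from 47.2 to 199.9 CPM in controls on HF/HS and from 71.0 to 205.8 in HGFAC-KO mice on HF/HS, against 55.6 to 86.5 and 56.4 to 105.4 on chow. The medians were 61.6 and 78.0 CPM on HF/HS and 70.9 and 70.6 on chow, and the second-highest mice on HF/HS had 190.1 and 188.5 CPM. Other B cell genes, with 5 tested in controls and 4 in HGFAC-KO mice, held no gene that passed with diet in either genotype, nor did the cholangiocyte list, with 5 tested in each. Of 7 hepatocyte genes, *Apoa1* rose with HF/HS in controls (0.39 ± 0.05, adjusted p = 0.000292), and none passed in HGFAC-KO mice.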
